A study of Mus musculus with 12 samples.

Results

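The collagen chain genes are the genes whose mouse symbol is Col, a number, the letter a and a second number. The RefSeq gene table holds 44 such symbols. Of these, 43 were matched to the deposited transcripts, among 23715 genes in all, and they held 50 transcripts. Col12a1 was not matched and was not analysed here. By textbook class, 11 of the 43 genes encode fibrillar chains, 8 encode fibril-associated chains with interrupted helices (FACIT), 6 basement membrane chains, 6 beaded filament chains, 4 transmembrane chains, 3 short-chain collagens, 2 multiplexins and 3 other chains. A cartilage type of 7 genes (Col2a1, Col9a1, Col9a2, Col9a3, Col10a1, Col11a1 and Col11a2) cuts across these classes.

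RNA was sequenced from the calvaria, the roof of the skull, of 12 C57BL/6 mice in 4 groups of 3. They were newborn by the labels, while the study's methods state parietal bone taken on postnatal day 2. Med23MSC-/- mice (labelled P-KO) carry floxed Med23 alleles, which encode a subunit of the Mediator complex that links transcription factors to RNA polymerase, and the Prx1-Cre transgene, which deletes them in limb and craniofacial mesenchyme. Their control littermates (P-Ctrl) are WT by the labels and Med23 fl/fl by the study's text. Runx2+/- mice (R-Het) have lost 1 germline copy of Runx2, the transcription factor needed for osteoblasts to form, and were compared with WT littermates (R-WT). The comparisons ask which collagen genes differ in level when MED23 is absent from the mesenchyme, or when the dose of RUNX2 is lowered.

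Collagen chains fold as trimers into a long helix and are secreted as procollagen. Osteoblasts of the calvaria, which forms without a cartilage template over most of its area, secrete type I collagen as the main protein of bone matrix, and types III, V and XI are built into or onto its fibrils. Type II, IX, X and XI chains are the collagens of cartilage, types IV, XV and XVIII belong to basement membranes, type VI forms beaded filaments around cells, and the transmembrane collagens stay in the membrane of the cell that makes them.

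Values are FPKM, fragments per kilobase of transcript and per 1000000 fragments of a library, which are divided by transcript length and so allow levels of different genes to be set side by side. The smallest values correspond to roughly 7600000 to 11500000 fragments per mouse, and the number of fragments behind a gene's value, given below where it is small, rests on this estimate. Correlation of log2(FPKM + 1) between mice of 1 group was between 0.978 and 0.988 over the 13059 genes tested. Whole-transcript levels of the targeted gene overlapped between the genotypes in both sets: Med23 was between 4.54 and 5.99 FPKM in control and between 4.89 and 5.74 FPKM in Med23MSC-/- mice, and Runx2 was between 27.3 and 37.7 FPKM in WT and between 30.4 and 35.7 FPKM in Runx2+/- mice. In the Med23 set, Runx2 was lower without overlap, between 30.5 and 38.0 FPKM in control and between 23.7 and 28.7 FPKM in Med23MSC-/- mice (log2 fold change -0.40 ± 0.12, limma adjusted p = 0.127). These sums over a whole transcript do not measure the deleted exons. Xist, which female cells express, was at 49.1 and 37.8 FPKM in control mice 2 and 3, at 42.4 FPKM in WT mouse 1 and at no more than 0.0663 FPKM in the other mice, so that sexes were uneven between the groups. Skeletal muscle markers also varied. Their summed level was 26.3 to 1549 FPKM in control, 665 to 4654 FPKM in Med23MSC-/-, 2139 to 6387 FPKM in WT and 30.9 to 209 FPKM in Runx2+/- mice. Of the 10 muscle markers, 9 were lower in Runx2+/- mice at an adjusted p under 0.05 by limma, beside 1.49% of all tested genes. Markers of the tissue itself were present, with osteoblast markers summing to between 13418 and 35327 FPKM, whereas 4 of 6 epidermal markers (Krt5, Krt14, Dsg3 and Trp63) were under 1 FPKM in every mouse. In whole bone, fewer cells of a type and less RNA per cell cannot be told apart.

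Promoters of the collagen genes were searched for the RUNX motif, since RUNX2 binds it and is the factor the study pairs with MED23. The letters TGTGGT and TGCGGT and their reverse complements ACCACA and ACCGCA were sought in RefSeq windows of 300 bases (GRCm38.p6, 250 before to 50 after a start), on which at least 1 of them was found in 22.4% of all 32851 windows. Windows were available for 35 collagen genes, and 6 of these (Col4a2, Col4a4, Col8a1, Col17a1, Col18a1 and Col19a1) held a match. By window, the match was in 6 of 38 (15.8%). Col1a1, Col2a1, Col26a1, Col5a2, Col9a3, Col14a1, Col22a1 and Col4a3 had no window and were not searched. The 250 bases before the start are shown for Col1a2 and Col24a1, a major and a minor fibrillar chain with lower levels in Med23MSC-/- mice and no match, and for Col8a1, which holds a match 230 bases before its start. Each reads 5′ to 3′ along the gene's strand, and capitals mark the motif. A match is a description of the letters and no evidence of binding. They lie at chr6:4505368-4505617 (plus strand), chr3:145292222-145292471 (plus strand) and chr16:57754738-57754987 (minus strand), in this order.
Col1a2: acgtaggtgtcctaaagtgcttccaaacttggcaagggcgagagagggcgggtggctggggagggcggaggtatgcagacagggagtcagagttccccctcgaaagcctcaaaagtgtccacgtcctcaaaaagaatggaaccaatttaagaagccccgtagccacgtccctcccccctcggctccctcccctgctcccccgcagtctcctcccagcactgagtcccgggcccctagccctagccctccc
Col24a1: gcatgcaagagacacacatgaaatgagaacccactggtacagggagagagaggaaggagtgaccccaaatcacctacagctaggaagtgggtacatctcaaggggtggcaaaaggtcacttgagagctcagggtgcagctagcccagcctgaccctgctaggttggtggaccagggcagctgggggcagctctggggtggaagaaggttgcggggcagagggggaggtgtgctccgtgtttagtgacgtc
Col8a1: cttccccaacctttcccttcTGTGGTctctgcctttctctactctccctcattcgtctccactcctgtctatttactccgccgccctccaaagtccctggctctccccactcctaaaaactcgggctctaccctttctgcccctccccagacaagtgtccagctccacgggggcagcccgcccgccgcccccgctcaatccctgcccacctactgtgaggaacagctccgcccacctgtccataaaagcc

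Levels of the collagen genes were spread widely. Averaged over the 6 control and WT mice, 3 genes were at 1000 FPKM or more, 6 between 100 and 1000, 12 between 10 and 100, 11 between 1 and 10 and 11 under 1 FPKM. The 3 highest were Col1a2 (7541 FPKM) and Col1a1 (6017 FPKM), whose products form type I collagen, and Col3a1 (1458 FPKM), the chain of type III. Next came Col5a2 (434 FPKM), Col6a1 (246 FPKM), Col6a2 (201 FPKM), Col5a1 (110 FPKM), Col11a1 (103 FPKM) and Col16a1 (102 FPKM). Over the control and WT mice, the ranges of neighbours in this order overlapped for Col1a2 and Col1a1, for Col6a1 and Col6a2, for Col5a1 and Col11a1 and for Col11a1 and Col16a1, and they did not overlap for the other neighbours among these 9 genes. Although their ranges overlapped, Col1a2 was above Col1a1 in each of the 12 mice. Col1a1 and Col1a2 together held between 73.1% and 83.5% of the FPKM of all collagen genes in each of the 12 mice.

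**Figure D1:**
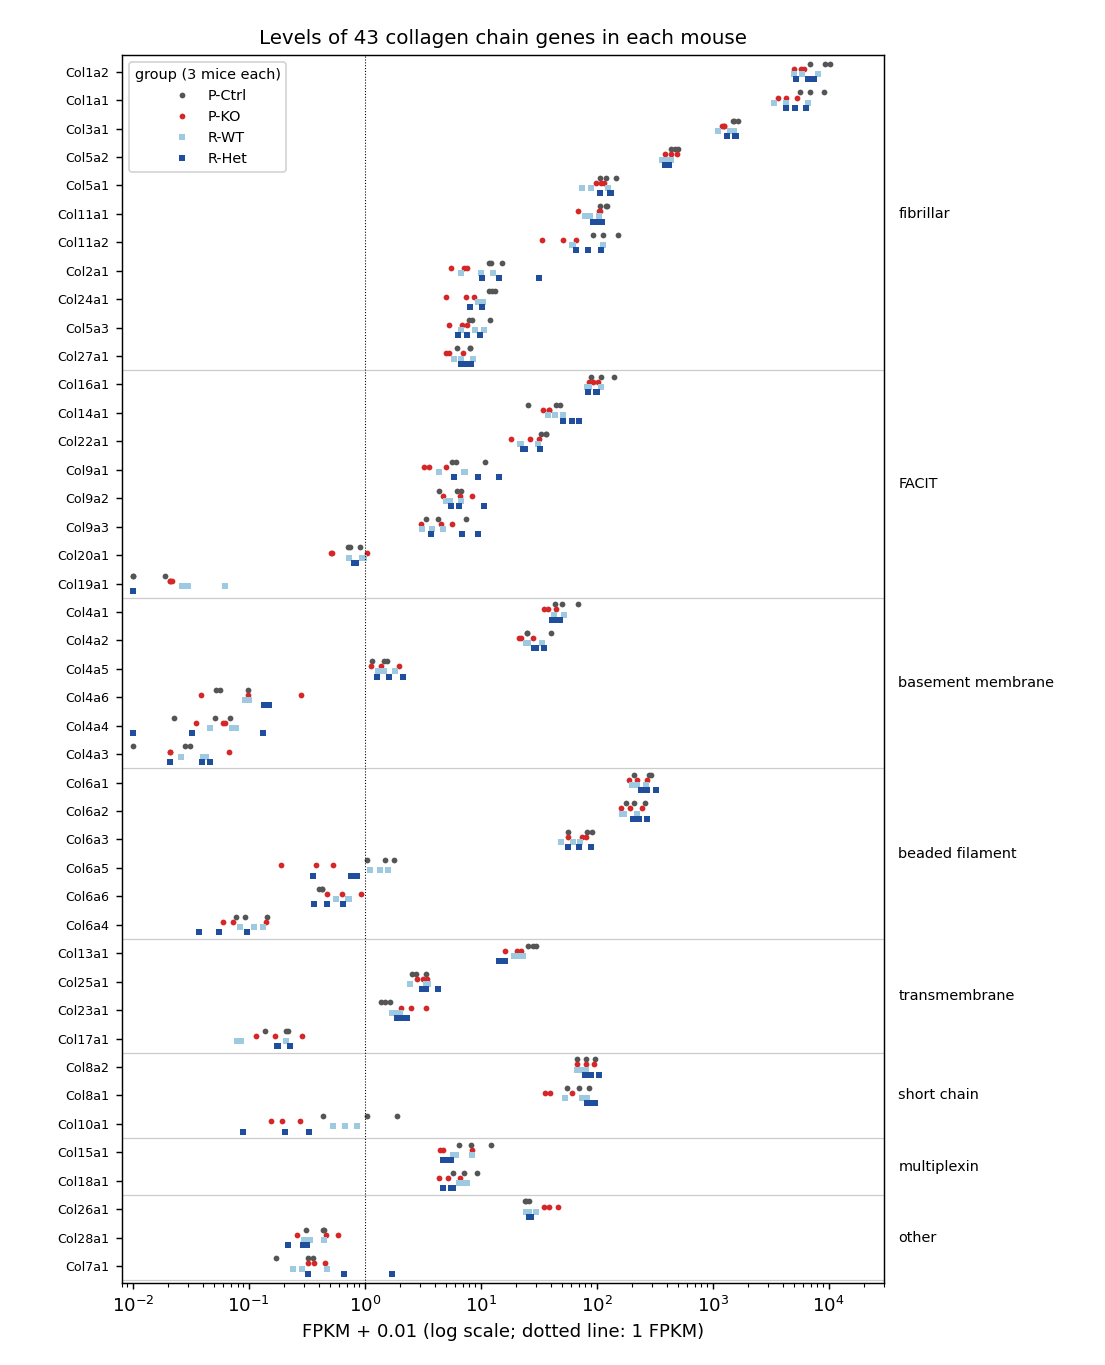
Level of each of the 43 collagen genes (rows, grouped by class) in each of the 12 mice, as FPKM + 0.01 on a log axis; P-Ctrl is control, P-KO Med23MSC-/-, R-WT wild type and R-Het Runx2+/-. The fibrillar genes Col1a2, Col1a1 and Col3a1 lie farthest to the right, and 11 genes average under 1 FPKM in the 6 control and WT mice.

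In calvaria of Med23MSC-/- mice, all 11 fibrillar chain genes had a log2 fold change below 0 against control littermates, as did 38.7% of all tested genes, and in 7 of them every Med23MSC-/- mouse lay below every control mouse. The levels of Col1a1 and Col1a2 were 1.64-fold and 1.55-fold lower by the ratio of means, that of Col11a2 was 2.38-fold lower, and that of Col5a2 was 1.08-fold lower with overlapping groups. Across all classes, 32 of the 43 genes passed the filter (1 FPKM in at least 3 of the 12 mice) and could be tested with limma, and 11 did not pass. Of the 32, 1 was called lower (Col2a1) and 1 higher (Col26a1) at an adjusted p under 0.05, beside 0.559% of all tested genes called lower and 1.01% called higher. Col6a5 passed the filter only through the control and WT mice, where it was high, so it is left out of the next counts and medians. Of the other 31, 12 were lower and 2 higher at an unadjusted p under 0.05, beside 5.63% and 15.7% of all tested genes. Groups did not overlap for 10 lower and 2 higher members of the 31, where the share over all tested genes was 7.68% and 19.6%. The median log2 fold change was -0.32 over the 31 collagen genes and 0.06 over all tested genes.

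Leaving out any 1 of the 6 mice left no collagen gene called in this comparison, and so did taking Xist, the muscle markers or the cartilage markers as a covariate. Over the 31 genes the median change was then -0.23 (log2) without control mouse 2, the mouse with the highest Col1a1 value, and -0.20, -0.19 and -0.37 with these 3 covariates in turn.

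Type I collagen is the bulk of the matrix that osteoblasts lay down. Col1a1 (chr11:94936224-94953042) encodes the α1 chain. It was at 5692, 9193 and 6876 FPKM in control mice 1 to 3 and at 4267, 5351 and 3669 FPKM in Med23MSC-/- mice. Every Med23MSC-/- mouse was below every control mouse, and control mouse 1, the only control with Xist near 0, was the nearest to them. The log2 fold change was -0.70 ± 0.21 (SE, n = 3 against 3), with an adjusted p of 0.129 by limma. Col1a2 (chr6:4505618-4541543), the α2 chain, was at 6843, 10213 and 9209 FPKM in control and at 5762, 6165 and 5039 FPKM in Med23MSC-/- mice. Its groups did not overlap either, and its log2 fold change was -0.62 ± 0.17 (limma, adjusted p = 0.115).

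Type III collagen is a fibrillar collagen of soft connective tissue and of early bone. Its gene Col3a1 was at 1509, 1662 and 1531 FPKM in control and at 1252, 1254 and 1210 FPKM in Med23MSC-/- mice. This was a smaller difference than for type I chains but with little spread, and the log2 fold change was -0.34 ± 0.09 (limma, adjusted p = 0.099). Type V chains help to start type I fibrils. Col5a1 was between 106 and 147 FPKM in control and between 99.2 and 116 FPKM in Med23MSC-/- mice, and Col5a2 between 441 and 504 FPKM and between 387 and 493 FPKM, with overlapping groups for both. Col5a3, a less abundant type V chain, was between 7.95 and 11.99 FPKM in control and between 5.32 and 7.59 FPKM in Med23MSC-/- mice, without overlap (log2 fold change -0.45 ± 0.18, limma adjusted p = 0.213).

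Col11a2 (chr17:34038919-34066684), a chain of the type XI collagen of cartilage fibrils that was here at about the level of Col11a1, was lower without overlap. It was at 92.4, 153 and 114 FPKM in control and at 51.3, 66.3 and 33.8 FPKM in Med23MSC-/- mice. The log2 fold change was -1.25 ± 0.27 (limma, adjusted p = 0.067). Col11a1 was between 106 and 122 FPKM in control and between 69.2 and 106 FPKM in Med23MSC-/- mice, and the groups overlapped. Col24a1, a minor fibrillar chain that is found in developing bone, was at 12.6, 11.7 and 13.3 FPKM in control and at 7.49, 8.83 and 4.96 FPKM in Med23MSC-/- mice (log2 fold change -0.77 ± 0.18, limma adjusted p = 0.080). All Med23MSC-/- values of Col11a2 and Col24a1 were below all control values. Col27a1, the other minor fibrillar chain of this branch, overlapped, at 6.17 to 8.08 FPKM in control and 5.02 to 7.01 FPKM in Med23MSC-/- mice.

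**Figure D2:**
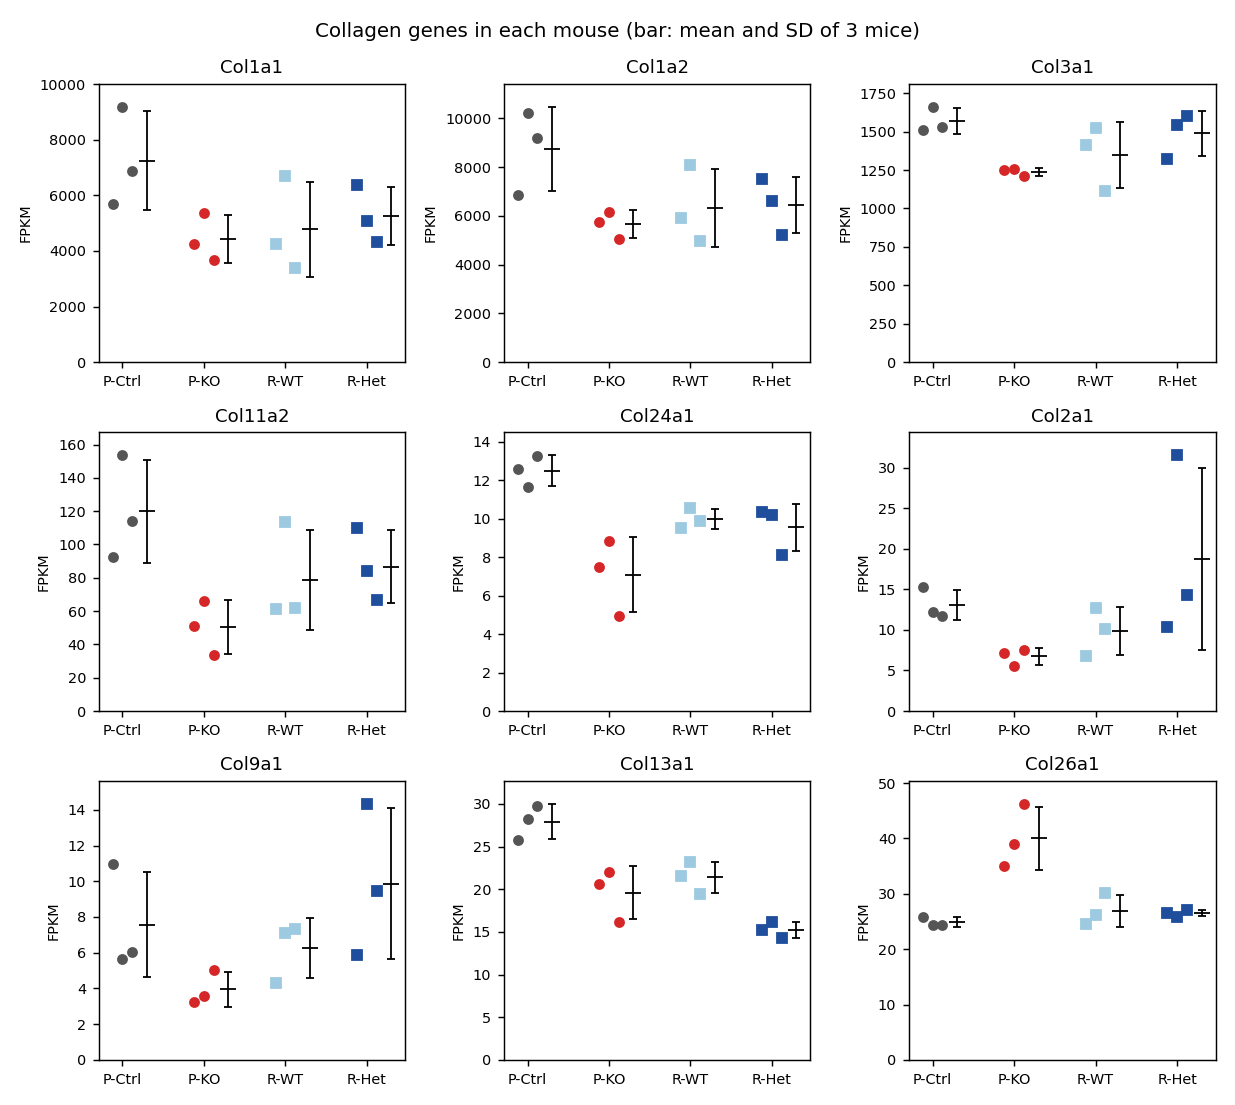
FPKM of 9 collagen genes in each mouse of the 4 groups (control P-Ctrl, Med23MSC-/- P-KO, wild type R-WT, Runx2+/- R-Het), with the mean and SD of 3 mice beside the points; each axis starts at 0. In the first 8 panels the P-KO points lie below the P-Ctrl points, in the panel of Col26a1 they lie above, and only Col13a1 also shows R-Het below R-WT without overlap.

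Col2a1 (chr15:97975602-98004724), the chain of type II collagen in cartilage, was lower in Med23MSC-/- mice. Its level was 15.2, 12.2 and 11.8 FPKM in control and 7.17, 5.59 and 7.56 FPKM in Med23MSC-/- mice, and its log2 fold change was -0.86 ± 0.14 (limma, adjusted p = 0.040). The adjusted p was between 0.072 and 0.133 when 1 mouse was left out. The chains of type IX collagen, which sits on the surface of type II fibrils, did not move together. Col9a1 was at 10.96, 5.67 and 6.07 FPKM in control and at 3.23, 3.55 and 5.06 FPKM in Med23MSC-/- mice, without overlap (log2 fold change -0.76 ± 0.24, limma adjusted p = 0.147). With control mice first, Col9a2 (4.36 to 6.69 FPKM against 4.73 to 8.41 FPKM) and Col9a3 (3.38 to 7.52 FPKM against 3.03 to 5.61 FPKM) overlapped. Col10a1, the collagen of hypertrophic cartilage, did not pass the filter, and its values rested on roughly 2 to 55 fragments. It was at 0.429, 1.04 and 1.87 FPKM in control and at 0.182, 0.269 and 0.145 FPKM in Med23MSC-/- mice.

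Cartilage markers that are no collagens differed in direction beside these chains. Their summed level was between 170.0 and 202 FPKM in control and between 107 and 134 FPKM in Med23MSC-/- mice. Yet 6 of the 12 had a log2 fold change below 0, beside 38.7% of all tested genes, and 6 above it. None was called, beside 0.559% of all tested genes called lower and 1.01% called higher. At an unadjusted p under 0.05, 4 were lower and 1 higher, beside 5.63% and 15.7% of all tested genes. Snorc, a membrane proteoglycan of chondrocytes and 1 of these 4, was at 54.8, 19.6 and 28.8 FPKM in control and at 12.2, 7.30 and 12.4 FPKM in Med23MSC-/- mice. Hapln1, the link protein of cartilage matrix, was the 1 higher marker. It was at 9.31, 6.38 and 6.65 FPKM in control and at 12.8, 10.7 and 15.5 FPKM in Med23MSC-/- mice. Their part in the result for Col2a1 was not tested beyond the covariate above. No marker of the list was under 1 FPKM in every mouse.

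Col26a1 (chr5:136741759-136883376) encodes a collagen-domain protein of the extracellular matrix. It was higher in Med23MSC-/- mice, at 35.0, 39.0 and 46.2 FPKM against 25.9, 24.3 and 24.3 FPKM in control mice. The log2 fold change was 0.66 ± 0.11 (limma, adjusted p = 0.042), or 1.61-fold by the ratio of means, and every Med23MSC-/- mouse was above every control mouse. The adjusted p was between 0.086 and 0.130 when 1 mouse was left out, and 0.077 when every mouse was scaled to an equal FPKM sum. Col23a1, a transmembrane collagen at a low level, also had non-overlapping higher values, 3.34, 2.05 and 2.50 FPKM against 1.66, 1.47 and 1.38 FPKM in control mice (log2 fold change 0.52 ± 0.16, limma adjusted p = 0.128).

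The remaining classes mostly overlapped between control mice, whose values are given first here, and Med23MSC-/- mice. Among FACIT genes, Col16a1 (89.4 to 140 FPKM against 85.4 to 103 FPKM) and Col14a1 (25.4 to 47.8 FPKM against 34.3 to 39.0 FPKM) overlapped. Col22a1, a chain of tissue junctions, was lower without overlap, at 33.3, 36.8 and 36.8 FPKM against 26.6, 31.5 and 18.2 FPKM (log2 fold change -0.50 ± 0.18, limma adjusted p = 0.183). The basement membrane chains Col4a1 (43.5 to 68.7 FPKM against 35.4 to 45.0 FPKM) and Col4a2 (25.2 to 40.7 FPKM against 21.2 to 28.3 FPKM) overlapped, as did Col4a5 at 1.16 to 1.54 FPKM against 1.13 to 1.97 FPKM. The 3 main beaded filament chains overlapped as well, Col6a1 at 209 to 292 FPKM against 190 to 272 FPKM, Col6a2 at 178 to 259 FPKM against 164 to 245 FPKM, and Col6a3 at 56.3 to 90.3 FPKM against 56.3 to 80.1 FPKM. The multiplexins Col15a1 (6.48 to 12.4 FPKM against 4.40 to 8.36 FPKM) and Col18a1 (5.72 to 9.29 FPKM against 4.37 to 6.62 FPKM) overlapped too.

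Col8a1 and Col8a2 encode the chains of type VIII collagen, a network-forming short-chain collagen. Col8a1 was between 55.5 and 86.4 FPKM in control and between 35.8 and 60.7 FPKM in Med23MSC-/- mice (log2 fold change -0.65 ± 0.23, limma adjusted p = 0.169), and Col8a2 was between 68.2 and 97.5 FPKM and between 67.0 and 94.4 FPKM. Col13a1, a transmembrane collagen of cell adhesion sites, was lower without overlap, at 25.8, 28.2 and 29.8 FPKM in control and 20.6, 22.1 and 16.1 FPKM in Med23MSC-/- mice (log2 fold change -0.50 ± 0.13, limma adjusted p = 0.094). Col25a1, the other transmembrane chain that passed the filter besides Col23a1, was between 2.52 and 3.35 FPKM in control and between 2.79 and 3.46 FPKM in Med23MSC-/- mice.

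In Runx2+/- mice the fibrillar class did not show lower levels. The log2 fold change against WT littermates was above 0 for 9 of its 11 genes, as for 56.1% of all tested genes, and groups overlapped for all 11. Col1a1 was at 4256, 6691 and 3397 FPKM in WT mice 1 to 3 and at 6365, 5090 and 4308 FPKM in Runx2+/- mice, and its log2 fold change was 0.18 ± 0.26 (limma, adjusted p = 0.807) and -0.04 without WT mouse 3. Over all classes, limma called 0 of the 32 collagen genes at an adjusted p under 0.05, beside 1.49% of all tested genes called lower and 0.398% called higher. Without Col6a5, 3 of 31 were lower and 3 higher at an unadjusted p under 0.05, where the share over all genes was 8.32% and 7.09%. Groups did not overlap for 3 lower members and 1 higher member of the 31, beside 10.4% and 10.7% of all tested genes. The median log2 fold change was 0.16 over the 31 collagen genes and 0.02 over all tested genes, and it was -0.08 for the 31 with the muscle markers as a covariate. Muscle markers did not overlap between WT and Runx2+/- mice, so that fit has little to separate genotype from muscle content.

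The 3 lower members in Runx2+/- mice were Col13a1, Col15a1 and Col18a1. Col13a1 was at 21.6, 23.2 and 19.5 FPKM in WT and at 15.2, 16.2 and 14.3 FPKM in Runx2+/- mice. Its log2 fold change was -0.47 ± 0.09 (limma, adjusted p = 0.055), and it was lower without overlap in both mutants. Col15a1 and Col18a1 encode the multiplexins, which lie at vessel and muscle basement membranes. Col15a1 was at 6.10, 8.43 and 5.77 FPKM in WT and at 5.04, 5.51 and 4.69 FPKM in Runx2+/- mice (log2 fold change -0.34 ± 0.14, limma adjusted p = 0.297), and Col18a1 at 6.50, 7.68 and 6.94 FPKM and at 4.68, 5.74 and 5.52 FPKM (log2 fold change -0.35 ± 0.11, limma adjusted p = 0.166). Beside them, the 6 endothelial markers summed to between 97.4 and 106 FPKM in WT and between 73.7 and 80.3 FPKM in Runx2+/- mice, and Pecam1, an adhesion molecule of endothelial cells, was called lower (log2 fold change -0.57 ± 0.08, limma adjusted p = 0.018). Its adjusted p was between 0.0536 and 0.0814 without WT mouse 1, WT mouse 3 or Runx2+/- mouse 1. By gene, 5 of the 6 markers had a log2 fold change below 0 in Runx2+/- mice, where 56.1% of all tested genes were above 0. Vwf, the von Willebrand factor of endothelium, was above 0 (0.41 ± 0.20, limma adjusted p = 0.383). In the Med23 set the sums overlapped, at 89.4 to 104 FPKM in control and 98.9 to 105 FPKM in Med23MSC-/- mice, and Vwf was called higher in Med23MSC-/- mice (log2 fold change 1.33 ± 0.15, limma adjusted p = 0.021, or 0.0594 to 0.0890 when any 1 mouse other than control mouse 1 was left out). All 6 markers were at 1 FPKM or more in at least 1 mouse. The skeletal muscle markers were also lower in Runx2+/- mice, with sums of 2139 to 6387 FPKM in WT and 30.9 to 209 FPKM in Runx2+/- mice. Whether the endothelial markers bear on the multiplexins was not tested. Fits with the muscle markers as a covariate were run for both multiplexins. As these markers did not overlap between WT and Runx2+/- mice, such a fit has little to separate genotype from muscle content.

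Col6a5, a beaded filament chain, was low in level in every mouse. It was at 1.47, 1.79 and 1.03 FPKM in control, 0.178, 0.527 and 0.372 FPKM in Med23MSC-/-, 1.57, 1.33 and 1.11 FPKM in WT and 0.851, 0.747 and 0.349 FPKM in Runx2+/- mice. It passed the filter only through the control and WT mice, so its difference is given as a description. Roughly 14 to 178 fragments lay behind these values. Col14a1, a FACIT chain of tendon and other dense connective tissue, was the higher member in Runx2+/- mice, at 60.7, 70.1 and 51.6 FPKM against 43.9, 50.8 and 37.9 FPKM in WT mice (log2 fold change 0.45 ± 0.14, limma adjusted p = 0.179).

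The cartilage type stood higher on average in Runx2+/- mice, with overlapping groups in all 6 tested genes. Col2a1 was at 6.81, 12.8 and 10.1 FPKM in WT and at 10.3, 31.5 and 14.3 FPKM in Runx2+/- mice, with the highest value in Runx2+/- mouse 2 (log2 fold change 0.75 ± 0.37, limma adjusted p = 0.396, and -0.37 with the cartilage markers as a covariate). The same mouse had the highest values of Col9a1 (14.3 FPKM), Col9a2 (10.6 FPKM) and Col9a3 (9.51 FPKM) among the 12. Of the 12 cartilage markers, 1 was called higher in Runx2+/- mice, beside 0.398% of all tested genes. At an unadjusted p under 0.05, 6 were higher and 0 lower, beside 7.09% and 8.32% of all tested genes. A log2 fold change above 0 was found for 10 of the 12, beside 56.1% of all tested genes. The sum of the 12 was between 145 and 175 FPKM in WT and between 173 and 232 FPKM in Runx2+/- mice. Col10a1 went the other way at its low level, with 0.666, 0.526 and 0.848 FPKM in WT and 0.195, 0.319 and 0.080 FPKM in Runx2+/- mice, so that its values were lower without overlap in both mutants.

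Other network chains overlapped in Runx2+/- mice. Col4a1 was between 42.8 and 52.5 FPKM in WT and between 41.5 and 48.3 FPKM in Runx2+/- mice, and Col4a2 between 24.5 and 33.5 FPKM and between 28.9 and 34.8 FPKM. Col6a1 was between 202 and 268 FPKM in WT and between 239 and 323 FPKM in Runx2+/- mice, and Col6a2 between 164 and 221 FPKM and between 207 and 272 FPKM. Col8a1 was between 52.8 and 82.5 FPKM in WT and between 81.9 and 96.4 FPKM in Runx2+/- mice. Col26a1, which was higher in Med23MSC-/- mice, was at 24.6, 26.2 and 30.2 FPKM in WT and at 26.6, 25.9 and 27.1 FPKM in Runx2+/- mice (log2 fold change -0.02 ± 0.09, limma adjusted p = 0.954, and 0.06 without WT mouse 3).

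**Figure D3:**
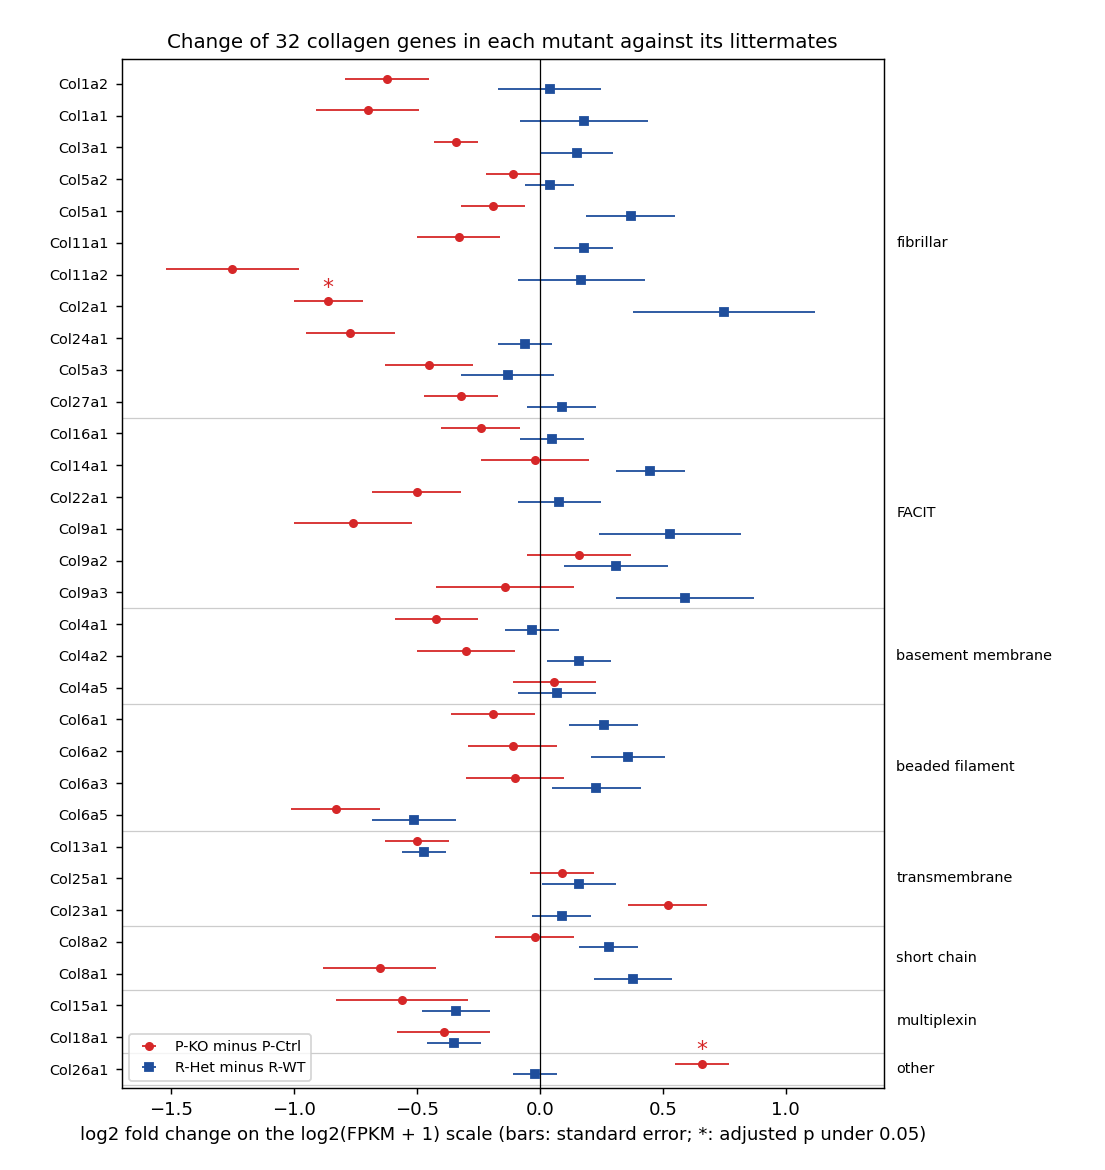
Log2 fold change with its standard error for the 32 tested collagen genes, in Med23MSC-/- against control mice (P-KO minus P-Ctrl, circles) and in Runx2+/- against WT mice (R-Het minus R-WT, squares), grouped by class; stars mark an adjusted p under 0.05 (Col2a1 and Col26a1). All 11 fibrillar circles lie left of 0, while 9 of the 11 squares lie right of it.

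Whether the Med23 set and the Runx2 set differed in their changes was tested directly, in a fit of all 12 mice. None of the 32 collagen genes passed an adjusted p under 0.05 by limma, beside 0.153% of all tested genes. At an unadjusted p under 0.05, 10 genes had a lower change in the Med23 set than in the Runx2 set and 2 had a higher change, beside 4.17% and 11.1% of all tested genes, and 8 of the 10 were fibrillar. The nearest to the threshold was Col26a1, with a difference of 0.68 ± 0.15 on the log2 scale (limma, adjusted p = 0.071), followed by Col2a1 with -1.61 ± 0.45 (limma, adjusted p = 0.127) and Col11a2 with -1.42 ± 0.42 (limma, adjusted p = 0.140). For Col1a1 the difference was -0.88 ± 0.36 (limma, adjusted p = 0.276). The median difference was -0.45 over the 31 collagen genes other than Col6a5 and 0.04 over all tested genes, and with the muscle markers as a covariate the median of the 31 was -0.02. As these markers did not overlap between WT and Runx2+/- mice, the last value cannot tell genotype and muscle content apart in that set.

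The share of all FPKM held by collagen genes followed type I collagen. It was 1.64%, 2.61% and 1.97% in control mice and 1.25%, 1.49% and 1.10% in Med23MSC-/- mice, which did not overlap. In WT mice it was 1.30%, 1.945% and 1.02%, and in Runx2+/- mice 1.82%, 1.53% and 1.28%, which overlapped. Without Col1a1 and Col1a2, the other 41 collagen genes held between 0.342% and 0.430% in control and between 0.274% and 0.304% in Med23MSC-/- mice. Cartilage-type genes held between 0.0248% and 0.0340% in control and between 0.0122% and 0.0195% in Med23MSC-/- mice. Most of this share was type XI: in control mice Col11a1 and Col11a2 averaged 116 and 120 FPKM, and every other cartilage-type gene 13.1 FPKM or less. Shares add up to a fixed total, so that a share of 1 gene group depends on the values of all others.

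Chains of the same collagen are needed in fixed proportions, and 11 ratios between chains were compared in both sets (22 exact permutation tests). With 3 mice against 3 the smallest two-sided p is 0.1, so that no ratio could pass, and after adjustment over the 22 tests the smallest p was 0.440. The ratio of Col1a1 to Col1a2 stayed between 0.682 and 0.900 in the 12 mice, a 1.32-fold range, while Col1a1 itself ranged 2.71-fold. Similarly, Col6a1 over Col6a2 ranged 1.20-fold (1.11 to 1.33) and Col4a1 over Col4a2 ranged 1.42-fold (1.39 to 1.98). In the Runx2 set these last ratios were lower without overlap. Col6a1 over Col6a2 was 1.30, 1.21 and 1.24 in WT and 1.16, 1.15 and 1.19 in Runx2+/- mice, and Col4a1 over Col4a2 was 1.67, 1.57 and 1.75 in WT and 1.39, 1.56 and 1.39 in Runx2+/- mice, both with exact p = 0.1.

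In Med23MSC-/- mice, 3 ratios did not overlap with control mice. Col11a1 over Col11a2 was 1.15, 0.783 and 1.065 in control and 2.06, 1.60 and 2.05 in Med23MSC-/- mice, a difference of 0.94 on the log2 scale. Col9a1 over Col9a2 was 1.64, 0.909 and 1.39 in control and 0.486, 0.752 and 0.602 in Med23MSC-/- mice, a difference of -1.08. Col5a2 over Col1a1 was 0.0775, 0.0516 and 0.0733 in control and 0.102, 0.0920 and 0.105 in Med23MSC-/- mice, a difference of 0.59. The exact permutation p was 0.1 for each. With control mice first, Col3a1 over Col1a1 (0.181 to 0.265 against 0.234 to 0.330) and Col8a1 over Col8a2 (0.722 to 1.08 against 0.418 to 0.748) overlapped, with exact p = 0.2 for both. Col5a1 over Col5a2, Col6a3 over Col6a2 and Col9a3 over Col9a2 overlapped between mutant and littermates in both sets.

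**Figure D4:**
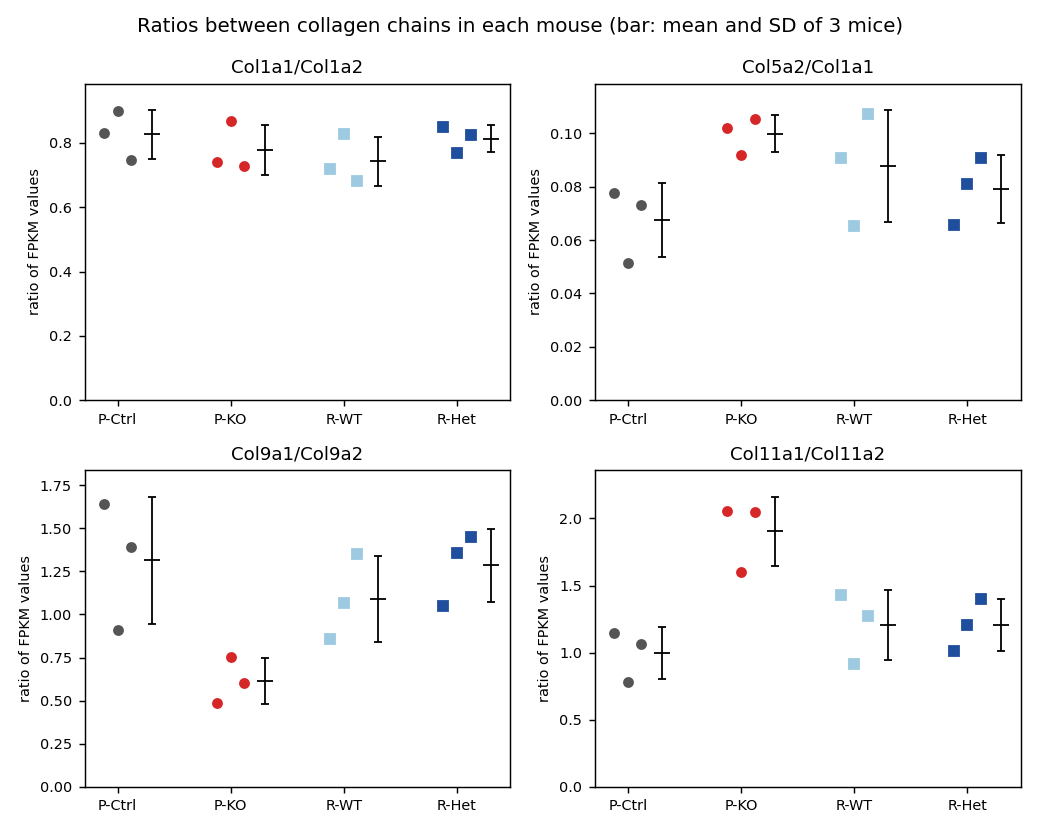
Ratio of FPKM values between 2 collagen chains in each mouse of the 4 groups (P-Ctrl control, P-KO Med23MSC-/-, R-WT wild type, R-Het Runx2+/-), with mean and SD of 3 mice. Col1a1/Col1a2 lies between 0.682 and 0.900 in all 12 mice, whereas in P-KO the ratio Col11a1/Col11a2 lies above and Col9a1/Col9a2 below P-Ctrl.

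Of the 43 genes, 6 had more than 1 transcript in the files. Col2a1 transcripts differ by exon 2 (chr15:98000403-98000606, 204 bases), which the longer transcript holds. The longer transcript took 23.2% to 38.0% of Col2a1 in control, 27.5% to 67.7% in Med23MSC-/-, 27.7% to 31.3% in WT and 17.3% to 17.9% in Runx2+/- mice. Its share was thus lower without overlap in Runx2+/- mice, where the shorter transcript was at 8.51, 26.1 and 11.8 FPKM. Col18a1 had a shorter transcript of 4791 bases and a longer one of 5063 bases. The shorter took 0.874% to 4.43% of Col18a1 in control and 5.19% to 26.1% in Med23MSC-/- mice, and 2.68% to 8.29% in WT and 9.84% to 16.3% in Runx2+/- mice, without overlap in either set. Its level was low, between 0.0633 and 1.14 FPKM, so its share rests on few fragments. How fragments were divided among transcripts is not given in the sources used here, and these shares have no test. For Col4a5, Col6a3, Col6a6 and Col25a1 the shares overlapped between mutant and littermates in both sets.

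Several collagen genes lie side by side. On GRCm38, Col4a1 and Col4a2 overlap by 85 bases on chromosome 8 and Col4a3 and Col4a4 by 114 bases on chromosome 1, while Col4a5 and Col4a6 are 1274 bases apart on chromosome X. Col3a1 and Col5a2 lie 24624 bases apart and Col6a1 and Col6a2 85161 bases apart. Whether counting used strand is not given in the sources used here, so reads in the overlapping ends cannot be assigned with certainty. Col6a1 and Col6a2 had overlapping levels, whereas 2 other pairs of neighbours, picked here for their distance in level, did not. Col4a5 was at 1.16 to 1.82 FPKM in control and WT mice and Col4a6 at 0.0419 to 0.0900 FPKM, and Col9a1 was at 4.32 to 10.96 FPKM with Col19a1, 4944 bases away, at no more than 0.0525 FPKM.

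The 11 genes that did not pass the filter were Col10a1, given above, Col4a3, Col4a4 and Col4a6 of basement membranes, Col6a4 and Col6a6 of beaded filaments, the FACIT genes Col19a1 and Col20a1, and Col17a1, Col7a1 and Col28a1. Col7a1 and Col17a1 encode collagens that anchor the epidermis. Col17a1 was between 0.0688 and 0.276 FPKM in the 12 mice, and Col7a1 was between 0.162 and 0.651 FPKM in 11 of them and at 1.72 FPKM in Runx2+/- mouse 3. Col19a1 was listed at 0 in 5 of the 12 mice and rested on no more than 2 fragments in any. Col20a1 was between 0.502 and 1.03 FPKM and Col6a6 between 0.354 and 0.917 FPKM.

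Genes that modify, fold, trim and cross-link collagen were followed beside the chains. Of 35 listed genes 34 were tested, and in Med23MSC-/- mice 1 was called lower and 1 higher, beside 0.559% and 1.01% of all tested genes. Lox, the lysyl oxidase that starts cross-links between collagen molecules, was at 184, 206 and 206 FPKM in control and at 305, 273 and 317 FPKM in Med23MSC-/- mice (log2 fold change 0.58 ± 0.09, limma adjusted p = 0.039). Loxl4, a relative of Lox, was at 13.1, 13.9 and 13.6 FPKM in control and at 7.52, 8.53 and 6.53 FPKM in Med23MSC-/- mice (log2 fold change -0.77 ± 0.11, limma adjusted p = 0.031). The groups did not overlap for either gene. With any 1 mouse left out the adjusted p was between 0.0604 and 0.154 for Lox and between 0.0551 and 0.109 for Loxl4. At an unadjusted p under 0.05, 6 of the 34 were lower and 3 higher, where the share over all tested genes was 5.63% and 15.7%. The list had a median log2 fold change of 0.05. Sparc, a collagen-binding protein of bone matrix and the most abundant of the list, was at 7274, 8212 and 7879 FPKM in control and at 5988, 5922 and 5323 FPKM in Med23MSC-/- mice, lower without overlap (log2 fold change -0.44 ± 0.11, limma adjusted p = 0.099). Serpinh1, the collagen chaperone of the endoplasmic reticulum, was between 1363 and 1679 FPKM in control and between 1518 and 1592 FPKM in Med23MSC-/- mice.

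In Runx2+/- mice limma called 0 of the 34 processing genes, where 1.49% of all tested genes were called lower and 0.398% higher. At an unadjusted p under 0.05, 1 was lower and 7 were higher, beside 8.32% and 7.09% of all tested genes. The 3 most abundant were Sparc (5313 to 7120 FPKM in WT and 5562 to 7085 FPKM in Runx2+/- mice), Serpinh1 (1129 to 1317 FPKM and 1149 to 1432 FPKM) and Ppib, a prolyl isomerase (1272 to 1383 FPKM and 1178 to 1325 FPKM). Of the collagen receptors, 7 of 8 listed genes were tested, and limma called 0 in either set. Med23MSC-/- mice had 1 lower and 1 higher receptor at an unadjusted p under 0.05, beside 5.63% and 15.7% of all tested genes. Runx2+/- mice had 2 lower receptors and 1 higher at this threshold, beside 8.32% and 7.09%. Itgb1, the shared β chain of the collagen-binding integrins, was between 263 and 304 FPKM in control and between 338 and 348 FPKM in Med23MSC-/- mice. Mrc2, which takes up collagen fragments, was between 59.0 and 73.9 FPKM in control and between 49.3 and 52.0 FPKM in Med23MSC-/- mice. Ddr2, a receptor kinase for fibrillar collagen, was between 29.3 and 36.2 FPKM in WT and between 41.0 and 42.96 FPKM in Runx2+/- mice. In the other set each of these 3 receptor genes overlapped, Itgb1 at 273 to 294 FPKM in WT and 257 to 301 FPKM in Runx2+/- mice, Mrc2 at 48.7 to 66.1 FPKM and 55.3 to 65.6 FPKM, and Ddr2 at 30.4 to 31.8 FPKM in control and 30.0 to 36.4 FPKM in Med23MSC-/- mice.

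Beside the lower type I levels, the 12 osteoblast markers summed to between 30948 and 35327 FPKM in control and between 13418 and 20286 FPKM in Med23MSC-/- mice. Of the 12, 2 were called lower, beside 0.559% of all tested genes. At an unadjusted p under 0.05, 8 were lower and 0 higher, beside 5.63% and 15.7% of all tested genes. All 12 had a log2 fold change below 0, beside 38.7% of all tested genes. In the Runx2 set the 12 markers summed to between 29577 and 33687 FPKM in WT and between 17280 and 26019 FPKM in Runx2+/- mice. Limma called 0 of 12 there. At an unadjusted p under 0.05, 2 were lower and 2 higher, beside 8.32% and 7.09% of all tested genes. The osteoclast markers summed to between 4455 and 7973 FPKM in control and between 4099 and 5175 FPKM in Med23MSC-/- mice, with 0 of 6 called at either threshold. In the Runx2 set the sums did not overlap, at 5039 to 6317 FPKM in WT and 3301 to 4122 FPKM in Runx2+/- mice. There, limma called 2 of 6 lower, beside 1.49% of all tested genes. At an unadjusted p under 0.05, all 6 were lower, beside 8.32%. The Schwann cell markers summed to between 8.49 and 10.6 FPKM in control and between 15.4 and 31.2 FPKM in Med23MSC-/- mice. There, 0 of 4 tested markers were called by limma and 3 were higher at an unadjusted p under 0.05, beside 15.7% of all tested genes. No marker of the osteoblast or osteoclast list, and 1 of 5 Schwann cell markers (Cdh19), was under 1 FPKM in every mouse. The part of these cell types in the collagen levels was not tested.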

How the data were processed

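Calvarial RNA of 12 mice was sequenced by the authors. The deposited FPKM files give a value for each of 30411 RefSeq transcripts (sums of 891329 to 1068933 per mouse). The submitters' processing notes name Bowtie 0.12.8 and mm10, without their roles. The program that computed FPKM is not given in the sources used here. Transcripts were matched to symbols by the RefSeq table (29835) or GENCODE (180), with 396 unmatched, and summed per gene.

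Each mutant was compared with its littermates by limma 3.58.1 (R 4.3.3, trended variances, two-sided) on log2(FPKM + 1). Genes needed 1 FPKM or more in 3 or more of 12 mice, with Benjamini-Hochberg adjustment over all 13059 genes. Fold changes on this scale understate changes of low genes. The difference between sets was a contrast in 1 fit of all mice. Ratios were tested by exact permutation (scipy 1.17.1). The fit was tested on simulated data. Nothing states that mice of a group came from separate litters, so p-values measure only the spread between these mice. No batches are given. Members and lists were chosen with earlier results of these data known. Genes named were the 2 highest per class, those with an adjusted p under 0.05, those without overlap and beyond 0.58 (log2), Col1a1 and the chains of the ratios, and others for completeness of their class. From the processing and receptor lists, called genes or the 3 highest were named. Vwf, Snorc and Hapln1 were named after their values were seen. Alternatives were another pseudocount, no filter, rescaling, a replicate block, each mouse left out, 3 covariates and a joint fit. The authors' files hold no counts, so precision rests on the number of mice and on the depth estimate.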

Additional observations from a re-analysis of the deposited data

Results flagged for a closer look

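No group has more than 3 mice, so single mice were not tested as outliers. Epyc, a small proteoglycan of the cartilage marker list, was the only gene among the collagen genes, their processing and receptor genes and the cartilage markers whose change differed between the sets by the direct test. Epyc was at 7.73, 6.55 and 8.80 FPKM in WT and at 22.8, 26.0 and 28.1 FPKM in Runx2+/- mice, against 5.43, 5.85 and 5.59 FPKM in control and 4.84, 7.77 and 5.25 FPKM in Med23MSC-/- mice. The change in the Med23 set minus that in the Runx2 set was -1.57 ± 0.21 on the log2 scale (limma, adjusted p = 0.022). The adjusted p was between 0.0506 and 0.0719 without control mouse 2 or 3, Med23MSC-/- mouse 1, WT mouse 3 or Runx2+/- mouse 1 or 3, and 0.673 with the muscle markers as a covariate. Those markers did not overlap between WT and Runx2+/- mice, so that fit has little to separate genotype from muscle content.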

How the results depend on the processing

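The 2 collagen genes called in Med23MSC-/- mice became 0 without the filter on low values (leaving out only genes at 0 in every mouse of the fit), 1 (Col2a1) after rescaling to the same sum, 0 with Xist, 0 with muscle markers and 0 with cartilage markers as a covariate, 6 (4 lower, 2 higher) in 1 fit of all 12 mice, where 1 of the lower ones was Col6a5, which passed the filter only through control and WT mice, and 0 (range 0 to 0) with any 1 mouse left out. Col2a1 was not among the 6 (adjusted p = 0.133), and Col26a1 was. Over all alternatives for single genes the adjusted p was between 0.0306 and 0.133 for Col2a1 and between 0.00904 and 0.201 for Col26a1. In Runx2+/- mice 0 collagen genes were called under every alternative run. Single-gene changes were recomputed for 19 genes in the Med23 set, 10 in the Runx2 set and 5 differences between the sets. Of these, 6 values changed sign, all in the Runx2 set and none from a called gene: Col1a1 to -0.04 without WT mouse 3 (-0.04 to 0.45 with 1 mouse left out), Col2a1 to -0.37 with cartilage markers, Vwf to -0.30 with muscle markers, and Col26a1 to 0.02 after rescaling, 0.16 with muscle markers and 0.06 without WT mouse 3 (-0.08 to 0.06 with 1 mouse left out). For the 11 ratios and the share, leaving out 1 of 3 mice cannot move a difference by 1 SD of the spread between mice. Staying within that SD therefore says nothing about their stability. With 1 mouse left out, the mutant minus littermate share was -1.01 to -0.528 percentage points in the Med23 set. In the Runx2 set it was -0.077 to 0.384. Taking only the most abundant transcript could move only Col6a3 over Col6a2, since no other chain of the ratios had more than 1 transcript.

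Replicate numbers were not shown to pair the mice: same-numbered deviations correlated at 0.180, 0.259 and 0.0527 in the Med23 set and at 0.00482, -0.0474 and -0.0836 in the Runx2 set, and each mouse correlated best with its own number in the Med23 set only. With the replicate block, 3 collagen genes (Col1a1, Col2a1 and Col11a2, all lower) were called in the Med23 set, 0 in the Runx2 set and 1 (Col2a1) for the difference between the sets.

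Over all genes, 73 lower and 132 higher calls in the Med23 set (64.4% higher) became 65 and 42 after rescaling (39.3% higher), 0 and 1 without the filter, 24 and 44 with Xist, 1 and 0 with muscle markers, 0 and 0 with cartilage markers, 190 and 527 in 1 fit and 0 to 13 and 0 to 22 with 1 mouse left out. In the Runx2 set, 195 and 52 became 7 and 7 without the filter, 69 and 21 with the block, 28 and 6 with Xist, 1 and 2 with either marker covariate, 56 and 39 in 1 fit and 28 to 135 and 6 to 34 with 1 mouse left out. For the difference between the sets, 12 and 8 became 17 and 20 after rescaling (54.1% instead of 40.0% higher), 17 and 119 with the block, 6 and 0 without the filter, 8 and 7 with Xist, 0 and 0 with muscle markers, 0 and 1 with cartilage markers, and 2 to 25 and 0 to 144 with 1 mouse left out. A fit with fewer mice or more terms has less power, and the cause of the other differences was not tested. Muscle markers did not overlap between WT and Runx2+/- mice, so with them as a covariate genotype and muscle content cannot be told apart in the Runx2 set. Values under 1 FPKM rest on few fragments, which limits what can be said of the 11 genes below the filter.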
